A study of Mus musculus with 6 samples.

Results

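The genes described here are the matrix metalloproteinases (Mmp), the tissue inhibitors of metalloproteinases (Timp), the ADAMTS proteases (Adamts) and the ADAMTS-like proteins (Adamtsl), measured in obstructed mouse ureters. Members were all genes on the array whose symbol begins with Mmp or Timp and a digit, or with Adamts. The rule found 51 genes on 103 probes, of 36610 gene names on 56605 probes. They comprise 23 Mmp, 4 Timp, 19 Adamts and 5 Adamtsl genes. A gene counted as measured where at least 1 of its probes was well above background, by the scanner software's own call, on every array of at least 1 group. By that criterion 45 of the 51 were measured, among 22260 measured genes in all, and 41 of the 45 exceeded it on all 6 arrays. The remaining 6 members, Adamts13, Mmp1a, Mmp1b, Mmp20, Mmp21 and Mmp24, did not meet it in either group and have no value here.

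The 6 mice were 2 months old and on a C57BL/6N background, and each ureter was taken 4 days after unilateral ureteral obstruction (UUO), in which the ureter of 1 side is closed so that urine cannot drain. The labels place 3 mice in a Col17a1-WT group and 3 in a Col17a1-KO group, with 1 array per mouse, named here WT 1 to WT 3 and KO 1 to KO 3. KO 3 is labelled female and the other 5 mice male. Every mouse had the obstruction, so these arrays compare genotypes within obstructed ureters and hold no unobstructed ureter to set them against. Col17a1 encodes collagen XVII, a transmembrane collagen that anchors basal epithelial cells to the basement membrane, and how the gene was altered is not stated in the labels.

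The interstitial matrix of an organ is cut by these secreted or membrane-bound zinc enzymes. MMPs are made as inactive proenzymes and, once activated, cleave collagens, elastin, laminins and many cell-surface proteins, while TIMPs bind the active site and block it. ADAMTS proteases include the aggrecanases and versicanases, which cut large proteoglycans, and the procollagen N-proteinases, which trim fibrillar procollagen. The ADAMTS-like proteins lack the protease domain and bind fibrillin microfibrils. In obstructed urinary tissue this system is studied for its part in inflammation and fibrosis.

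Array quality was similar across the mice. The 75th percentile of the processed signal lay between 144 and 165, between 35482 and 36568 probes were well above background, no spot was saturated, and arrays correlated with each other at r = 0.977 to 0.993 across probes. The gene named in the labels read higher in the KO-labelled ureters. Col17a1 was at -2.33, -0.80 and -0.39 on WT 1 to WT 3 and at 0.50, 0.53 and 0.40 on KO 1 to KO 3. The difference was 1.65 ± 0.50 on this probe and 1.10 ± 0.20 on the other, and the gene's adjusted p was 0.457 (limma). Which part of the gene was altered is not stated, so the label cannot be checked here and the group is called KO-labelled throughout. All values are log2 processed signals minus the array's own 75th percentile, so 0 is that percentile. A difference is the KO-labelled mean minus the WT mean with its standard error, from limma across all 22260 genes. Brightness differs between probes for reasons other than transcript number, so values are compared between arrays for 1 gene and not between genes.

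No member passed the adjusted threshold between the genotypes. Adjusted p-values (limma, Benjamini-Hochberg) of the 45 members ran from 0.418 to 0.994, and 0 of 45 passed 0.05. Over all genes 0 of 22260 passed, which is 0%, and the lowest adjusted p was 0.229. At an unadjusted p under 0.05 there were 4 members (8.89%), namely Adamts5, Mmp27, Mmp12 and Adamts14, all lower in the KO-labelled ureters. The share over all genes was 9.06%, so the members' share was near the background. The groups did not overlap in 3 members (6.67%), Adamts5, Mmp12 and Mmp27, against 15.4% of all genes. Of the 45, 20 were higher and 25 lower in the KO-labelled group, with a median difference of -0.02 log2 units against -9e-04 over all genes. These counts depended on single arrays. The members at an unadjusted p under 0.05 numbered 10 without WT 1, 2 without WT 2, 2 without KO 2 and 8 without KO 3, and the shares over all genes were 12%, 6.13%, 5.01% and 13.7%. The members whose groups did not overlap numbered 18 without WT 1, 5 without WT 2, 8 without WT 3 and 9 without KO 3. With an array removed 2 values face 3, so more genes separate, and the shares over all genes were then 32.4%, 22.2%, 25% and 33.6%. An exact permutation test of 3 arrays against 3 cannot go below a two-sided p of 0.1. The labels give 1 sample per mouse. Each limma p-value thus sets a difference against the spread between mice of a group, moderated over all genes. With 1 array per mouse, that spread also holds variation between arrays.

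**Figure D1:**
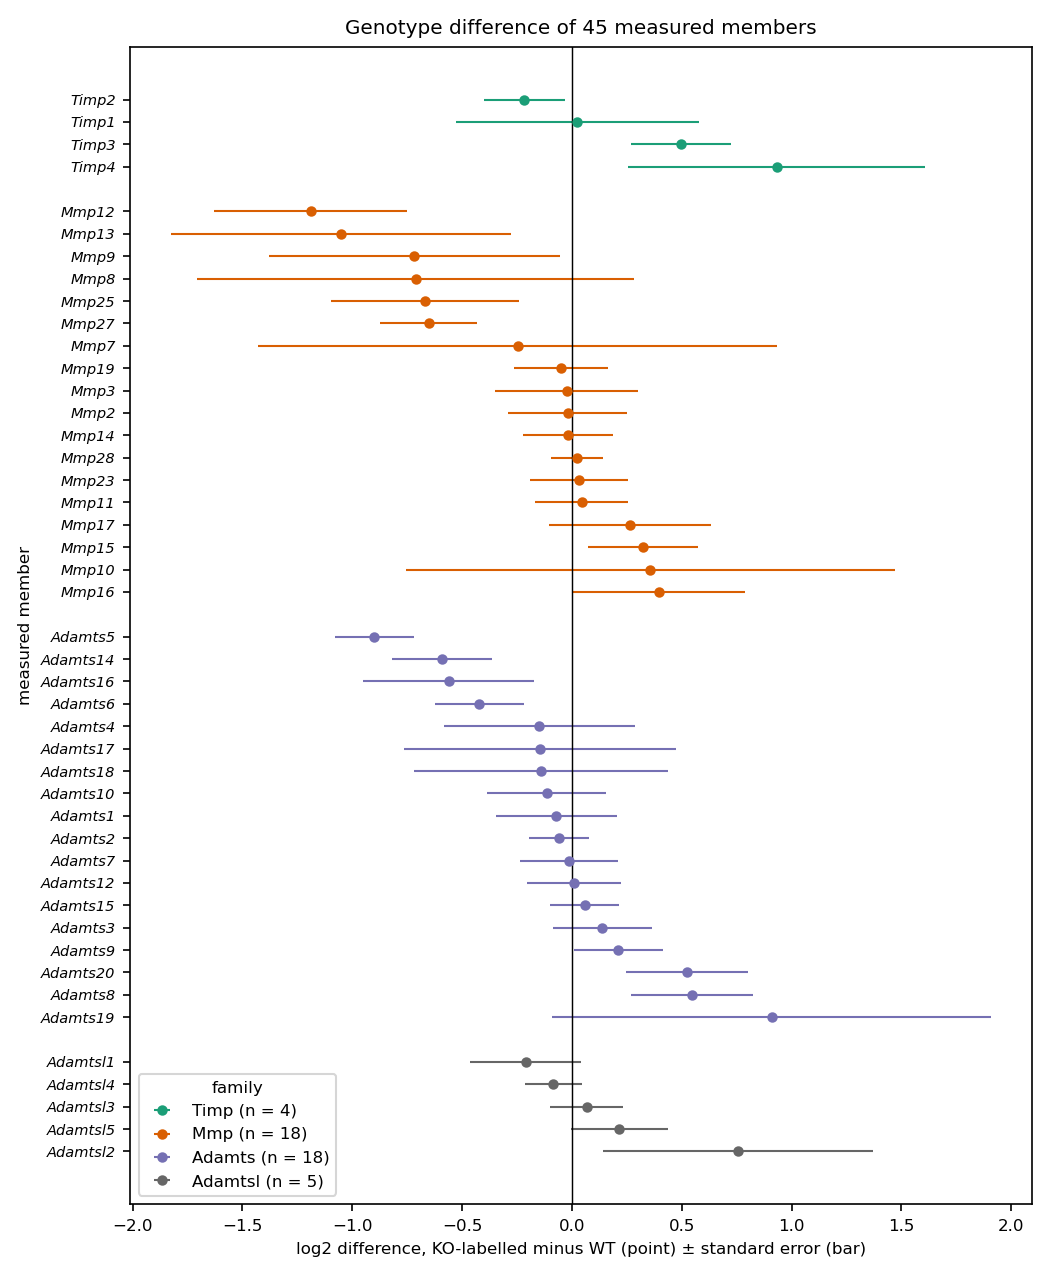
The difference of each of the 45 measured members, KO-labelled minus WT on the log2 scale, with its standard error, grouped by family and ordered by size (3 arrays per group). The bars of many members cross 0, and Adamts5, Mmp12, Mmp27 and Adamts14 lie farthest below 0 relative to their bars.

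The inhibitors come first. All 4 Timp genes passed the background call in all 6 mice, 3 were higher and 1 lower in the KO-labelled group, and none had an unadjusted p under 0.05. Their median difference was 0.26. Timp1, the inducible secreted inhibitor and a widely used marker of tissue injury, read 6.36, 8.36 and 8.01 on WT 1 to WT 3 and 7.28, 7.33 and 8.20 on KO 1 to KO 3. The KO-labelled values all lay inside the WT range, which spanned 1.99 log2 units or 3.98-fold from WT 1 to WT 2. The difference was 0.02 ± 0.55 (adjusted p = 0.994), with a 95% interval from -1.31 to 1.36, so a change of more than 2-fold in either direction was within the interval. Its sign rested on single arrays, since the difference was -0.58 without WT 1 and -0.27 without KO 3.

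Timp2, a constitutive inhibitor that also takes part in the activation of pro-MMP2, read 6.33, 5.70 and 5.94 in WT and 5.90, 5.62 and 5.80 in the KO-labelled ureters. Its groups overlapped, and the difference was -0.22 ± 0.18 (95% interval -0.66 to 0.23). Timp3, the inhibitor that stays bound to matrix and also blocks ADAM and ADAMTS enzymes, read 3.75, 3.65 and 4.11 in WT and 4.17, 4.78 and 4.06 in the KO-labelled ureters. KO 1 and KO 2 lay above every WT array and KO 3 just below WT 3, for a difference of 0.50 ± 0.23 (adjusted p = 0.578) that was 0.27 without KO 2. Timp4, an inhibitor of narrower tissue distribution, read 0.33, -1.51 and -1.40 in WT and 0.79, 0.52 and -1.10 in the KO-labelled ureters. Here WT 1, KO 1 and KO 2 were high and the other arrays low, so the high and low arrays crossed the genotypes, and the difference of 0.93 ± 0.67 had an adjusted p of 0.715. It was 1.53 without WT 1 and 1.51 without KO 3, against 0.61 without WT 2, 0.57 without KO 1 and 0.62 under another background correction, normexp.

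**Figure D2:**
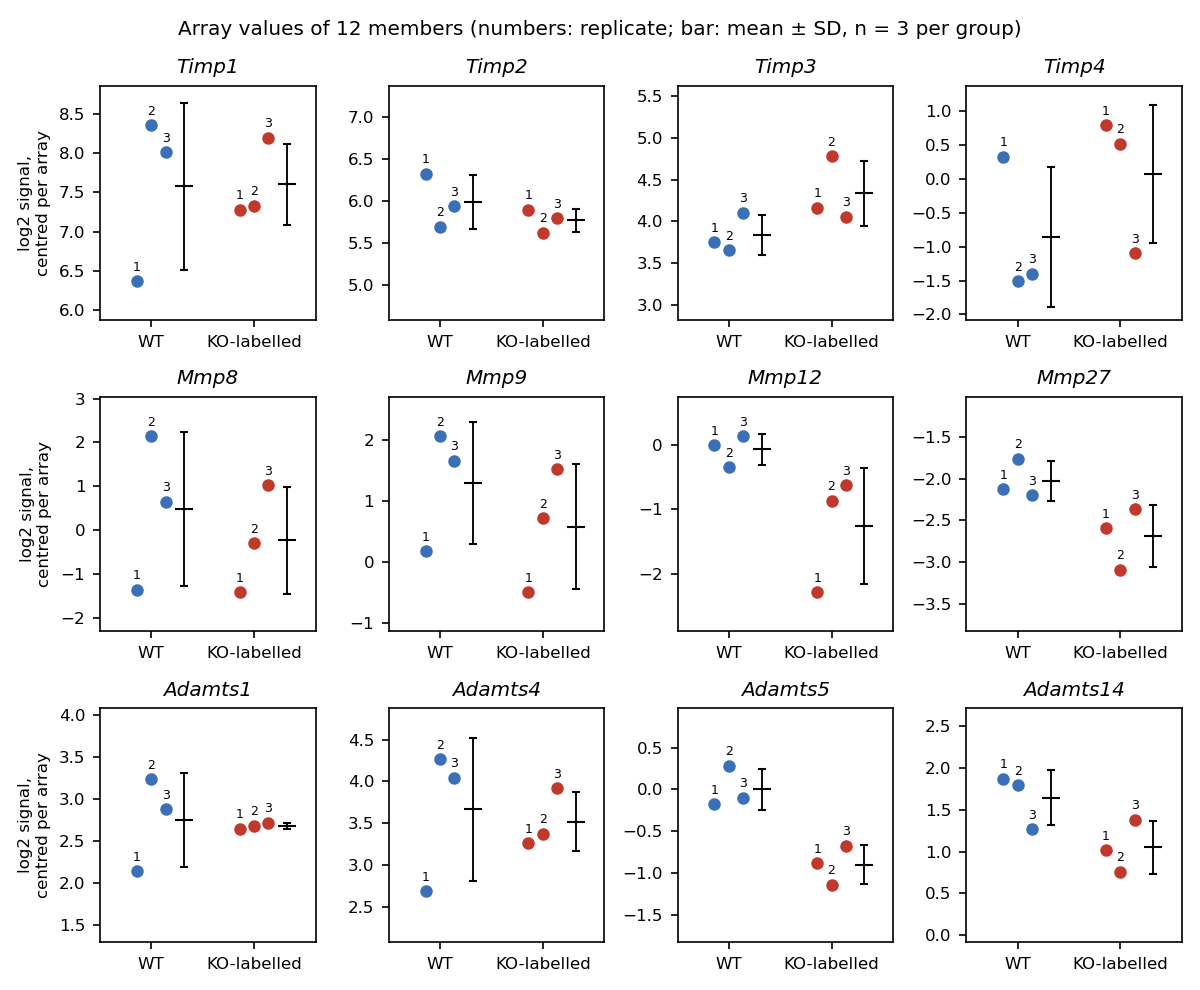
Array values of 12 members on the log2 scale, centred per array, for WT (blue) and KO-labelled (red) ureters, with the replicate number above each point and the mean ± SD (n = 3) beside it; each panel has its own axis range. The groups are apart in Adamts5, Mmp12 and Mmp27 and overlap in the other panels, and WT 1 is the lowest array for Timp1, Adamts1 and Adamts4.

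Among the enzymes that act on basement membrane and denatured collagen, the gelatinases differed in how far they varied. Mmp9, gelatinase B, which neutrophils and macrophages store or secrete, read 0.18, 2.07 and 1.66 in WT and -0.49, 0.72 and 1.53 in the KO-labelled ureters. WT 1 and KO 1 were its lowest arrays, and the groups overlapped. The difference was -0.72 ± 0.66 (adjusted p = 0.777) within a 95% interval from -2.32 to 0.89. It was -1.28 without WT 1 and -1.19 without KO 3, against -0.33 without WT 2 and -0.18 without KO 1. Mmp2, gelatinase A, which fibroblasts produce, read 3.77, 2.66 and 3.30 in WT and 3.29, 3.15 and 3.24 in the KO-labelled ureters. The KO-labelled values lay close together inside the WT range, and the difference was -0.02 ± 0.27 (95% interval -0.68 to 0.64). Mmp14, the membrane-anchored enzyme that activates pro-MMP2 at the cell surface, read 2.44, 2.21 and 2.66 in WT and 2.19, 2.79 and 2.28 in the KO-labelled ureters. Its lowest and highest arrays were both KO-labelled, and the difference was -0.02 ± 0.20 (95% interval -0.51 to 0.47).

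The secreted enzymes encoded in 1 gene cluster held several of the largest negative differences. Mouse chromosome 9 carries 10 of the 51 members within 416.8 kb, from position 7282762 to 7699535 by the probes' mm9 coordinates, in the order Mmp13, Mmp12, Mmp1b, Mmp3, Mmp1a, Mmp10, Mmp8, Mmp27, Mmp20 and Mmp7. Of the 7 that were measured, 6 were lower and 1 was higher in the KO-labelled group, with a median difference of -0.65 and 2 without overlap. The other 38 measured members divided into 19 lower and 19 higher, with a median of -0.0015 and 1 without overlap. Over all genes 15.4% were without overlap. The 6 lower genes include Mmp3 at -0.02 ± 0.33 and Mmp7 at -0.25 ± 1.18. They also include Mmp8, whose difference was 0.12 without WT 2. The cluster was singled out after these values had been seen, so its count is a description with no test.

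**Figure D3:**
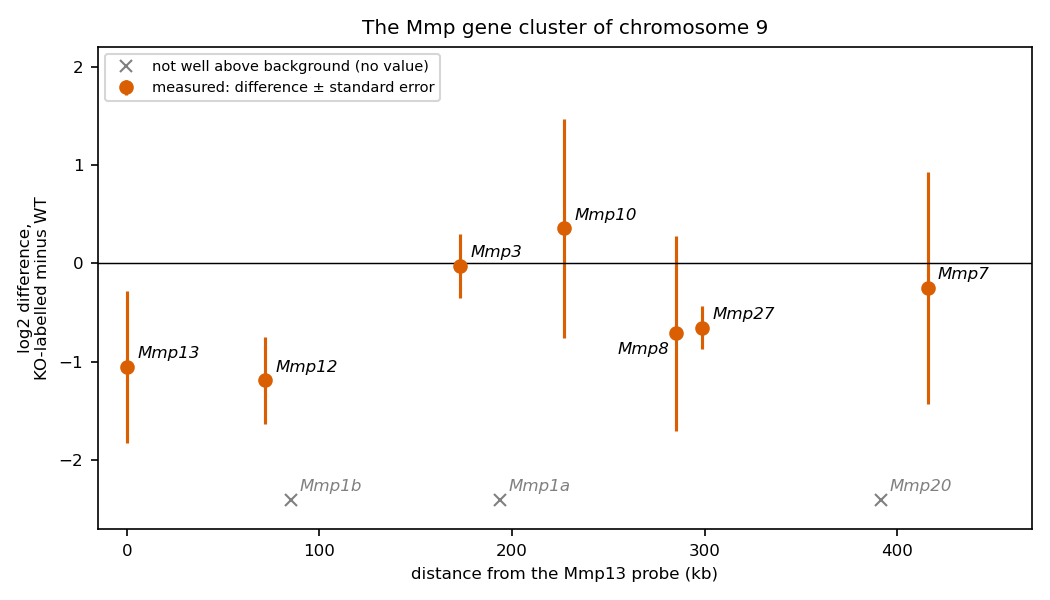
Difference, KO-labelled minus WT on the log2 scale with its standard error (3 arrays per group), of the Mmp genes of the chromosome 9 cluster against the distance of their probes from that of Mmp13 in kb; crosses mark the 3 genes without a value. Mmp10 is the 1 measured gene above 0, and the bars of Mmp12 and Mmp27 stay farthest from 0 relative to their length.

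Mmp12, the macrophage elastase, had the largest negative difference of all members. It read -0.01, -0.35 and 0.13 on WT 1 to WT 3 and -2.29, -0.87 and -0.62 on KO 1 to KO 3. Every KO-labelled value was below every WT value, and KO 1 was far below the rest. The difference was -1.19 ± 0.44, which is 2.28-fold lower, with an unadjusted p of 0.0338 and an adjusted p of 0.512 (limma). Without KO 1 it was -0.67, and under the normexp correction it was -0.71. Its other measured probes gave -1.12 and -0.59, and the brightest one lies at chr9:7358559-7358618 (mm9, plus strand). Most macrophage markers were also lower in the KO-labelled group, and no relation to Mmp12 across the 6 arrays was tested. Of 10 such markers, all of them well above background on all 6 arrays, 9 were lower in the KO-labelled ureters and 7 had an unadjusted p under 0.05, with none passing adjustment. Their mean level, each gene taken relative to its own mean, was 0.18 to 0.48 on the WT arrays and -0.50 to 0.01 on the KO-labelled ones. Among them Mertk, a receptor for apoptotic cells, had a difference of -0.47 ± 0.09, the complement gene C1qc of -0.56 ± 0.13 and the surface receptor Adgre1 of -0.89 ± 0.21 (adjusted p = 0.418, 0.418 and 0.433, limma). Their part in the Mmp12 difference was not tested. In whole ureters, fewer cells of a type and less RNA per cell cannot be told apart.

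Mmp27, a stromelysin-related enzyme with little described function, read -2.13, -1.76 and -2.20 in WT and -2.59, -3.09 and -2.36 in the KO-labelled ureters. The groups did not overlap, although KO 3 lay only just below WT 3. The difference was -0.65 ± 0.22 (unadjusted p = 0.0243, adjusted p = 0.488, limma), and it was -0.23 under the normexp correction. Its probe lies at chr9:7581328-7581387 (mm9, plus strand). Mmp13, the main interstitial collagenase of the mouse, read -4.16, -2.60 and -2.08 in WT and -5.40, -2.94 and -3.66 in the KO-labelled ureters, where 2 of 3 arrays were well above background. The groups overlapped through WT 1, and the difference was -1.05 ± 0.77 (adjusted p = 0.721). It was -1.66 without WT 1 and -1.58 without KO 2, against -0.62 without WT 3, -0.35 without KO 1 and -0.22 under normexp.

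Mmp8, the neutrophil collagenase, read -1.36, 2.15 and 0.65 in WT and -1.42, -0.31 and 1.02 in the KO-labelled ureters. The arrays were spread over 3.57 log2 units, or 11.9-fold, across both groups, with WT 1 and KO 1 lowest and WT 2 highest. Against that spread the difference of -0.71 ± 0.99 had an adjusted p of 0.854. It was -1.63 without WT 1 and -1.34 without KO 3, against -0.12 without KO 1 and 0.12 without WT 2. The neutrophil chemokine receptor Cxcr2, picked from the neutrophil markers after its values were seen, read -1.68, 1.55 and 0.43 in WT and -0.96, -0.39 and 1.43 in the KO-labelled ureters. WT 1, KO 1 and KO 2 were its 3 lowest arrays, as they were for Mmp8 and Mmp9. Of the 11 neutrophil markers 4 had these 3 arrays lowest, Cxcr2, S100a8, Csf3r and Retnlg, and 7 did not. Over all 11 neutrophil markers, 6 were higher and 5 lower in the KO-labelled group and 4 had an unadjusted p under 0.05. Their mean level was -0.85 to 0.21 on the WT arrays and 0.03 to 0.51 on the KO-labelled ones. These counts and levels include Ngp, a dim gene with the largest difference of the list, 3.17 ± 0.52. The filter kept Ngp only through the KO-labelled group, where it read higher, so part of the shift in mean level was built in. Ngp read -7.11, -5.77 and -6.38 in WT and -3.31, -2.33 and -4.10 in the KO-labelled ureters. The median difference of the list was 0.11. A shift of the mean level without Ngp was not tested. Granule genes of the list did not move as 1 class. Camp and Ltf were higher by 1.17 ± 0.18 and 1.99 ± 0.37 in the KO-labelled ureters (adjusted p = 0.398 and 0.418, limma). Mpo and Elane, also granule genes, differed by -0.02 ± 0.33 and -0.11 ± 0.13. Ngp was well above background on 3 of 3 KO-labelled arrays and on 0 of 3 WT arrays. Every marker of the list other than Ngp was well above background on all 6 arrays, and the part of these cells in the Mmp8 and Mmp9 values was not tested.

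The stromelysins Mmp3 and Mmp10, which cut proteoglycans and activate other proenzymes, had differences of about 0 and above 0. Mmp10 read -3.68, 0.06 and 0.53 in WT and -1.46, -0.24 and -0.33 in the KO-labelled ureters. Its 18.6-fold range came mainly from WT 1, and the difference of 0.36 ± 1.11 became -0.97 without that array and 1.14 without WT 3, and it was -0.013 under normexp. Mmp3 read 2.02, 3.07 and 2.96 in WT and 2.88, 2.24 and 2.86 in the KO-labelled ureters. WT 1 was again the lowest array, and the difference was -0.02 ± 0.33. Mmp7, matrilysin, an epithelial enzyme, read -4.23, -3.90 and -4.59 in WT and -7.15, -2.12 and -4.19 in the KO-labelled ureters. KO 1, where it was not well above background, and KO 2 lay on opposite sides of all WT arrays, and the difference was -0.25 ± 1.18.

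The promoters of the cluster are shown because several of its genes carry the same element close to the start site. RefSeq promoters on build GRCm38.p6 were matched for 36 of the 51 members, 39 promoters in all, and the 250 bases before the start were searched on both strands. The heptamer TGAGTCA, the consensus of the factor AP-1, was found in 7 of the 39 (17.9%) against 1466 of 32851 promoters (4.46%). Those 7 belong to Mmp10, Mmp12, Mmp13, Mmp1a, Mmp1b, Mmp3 and Mmp7, all of them genes of the chromosome 9 cluster. TATAAA was found in 25.6% of member promoters against 12.4% of all, and AGGAAG, a core bound by ETS factors, in 35.9% against 29.5%. The searched motifs do not overlap each other in the stretches below. Each stretch runs 5′ to 3′ on the plus strand from -110 to -11 relative to the start, and capitals mark TGAGTCA, read as TGACTCA where it lies on the other strand, and TATAAA.
Mmp13, chr9:7272404-7272503: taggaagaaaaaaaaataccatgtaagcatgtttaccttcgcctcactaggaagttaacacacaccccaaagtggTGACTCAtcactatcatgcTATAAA
Mmp12, chr9:7347264-7347363: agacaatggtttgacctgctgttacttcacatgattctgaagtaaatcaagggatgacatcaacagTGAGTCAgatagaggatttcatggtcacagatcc
Mmp3, chr9:7445712-7445811: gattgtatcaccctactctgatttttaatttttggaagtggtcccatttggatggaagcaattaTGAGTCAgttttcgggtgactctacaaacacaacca
Mmp10, chr9:7502232-7502331: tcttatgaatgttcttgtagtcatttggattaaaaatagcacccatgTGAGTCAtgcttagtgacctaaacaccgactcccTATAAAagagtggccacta
Mmp7, chr9:7691980-7692079: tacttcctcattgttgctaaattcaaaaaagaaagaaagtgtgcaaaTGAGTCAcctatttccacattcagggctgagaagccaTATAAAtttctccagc
Mmp8, chr9:7558319-7558418: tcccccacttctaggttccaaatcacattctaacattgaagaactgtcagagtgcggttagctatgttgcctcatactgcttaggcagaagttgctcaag
Mmp27, chr9:7571286-7571385: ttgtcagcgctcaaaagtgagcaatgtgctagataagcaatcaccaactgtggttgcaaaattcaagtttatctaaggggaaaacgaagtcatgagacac

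Relative to the start, the heptamer ended at -57 in Mmp10 and Mmp7, at -40 in Mmp3, at -38 in Mmp12 and at -29 in Mmp13. Mmp12 and Mmp7 each have another listed start whose promoter lacks it. Neither Mmp8 nor Mmp27 has these letters in the window.

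Outside the cluster, Mmp25, a membrane-anchored enzyme of leukocytes, read -3.77, -2.73 and -2.33 in WT and -4.12, -3.65 and -3.06 in the KO-labelled ureters. WT 1 was below KO 2 and KO 3, so the groups overlapped, with a difference of -0.67 ± 0.43 (adjusted p = 0.683). It was -1.08 without WT 1, against -0.36 without WT 3, -0.41 without KO 1 and -0.18 under normexp. Mmp19, a basement-membrane enzyme, read 2.82, 3.34 and 3.46 in WT and 3.13, 2.92 and 3.43 in the KO-labelled ureters, for a difference of -0.05 ± 0.22. Its KO-labelled values all lay inside the WT range.

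The aggrecanase Adamts5 had the lowest p of the members. It read -0.18, 0.28 and -0.10 on WT 1 to WT 3 and -0.88, -1.14 and -0.67 on KO 1 to KO 3. The groups were separated by a gap as wide as the spread within either of them. The difference was -0.90 ± 0.18, which is 1.87-fold lower, with a 95% interval from -1.34 to -0.46, an unadjusted p of 0.00218 and an adjusted p of 0.418 (limma). By unadjusted p it ranked 109 among the 22260 genes. Its other probe, in a different place of the transcript, gave -0.84, and leaving out any 1 array gave -1.01 to -0.76. The brighter probe lies at chr16:85899450-85899509 (mm9, minus strand).

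Adamts1, a versicanase and aggrecanase and the neighbour of Adamts5 on chromosome 16, had overlapping groups. Adamts1 read 2.13, 3.24 and 2.88 in WT and 2.65, 2.68 and 2.72 in the KO-labelled ureters. The KO-labelled arrays were nearly equal and lay inside the WT range, and the difference was -0.07 ± 0.28 (adjusted p = 0.961). It was -0.38 without WT 1 and 0.17 without WT 2. Adamts4, the inducible aggrecanase, read 2.69, 4.26 and 4.04 in WT and 3.26, 3.37 and 3.92 in the KO-labelled ureters. WT 1 was again lowest and WT 2 highest, and the difference was -0.15 ± 0.43 (95% interval -1.20 to 0.90). Adamts8, a related proteoglycanase, read -0.72, -1.44 and -1.10 in WT and -0.16, -0.44 and -1.02 in the KO-labelled ureters. KO 1 and KO 2 were above every WT array, for a difference of 0.55 ± 0.28 (adjusted p = 0.607) that was 0.35 without KO 1 and 0.34 under normexp. Adamts20, another proteoglycanase, read -3.13, -3.92 and -2.92 in WT and -2.97, -2.56 and -2.87 in the KO-labelled ureters, and its groups overlapped with a difference of 0.52 ± 0.28 (adjusted p = 0.616). It was 0.22 without WT 2 and 0.14 under normexp.

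Of the procollagen N-proteinases, Adamts14 read 1.87, 1.79 and 1.27 in WT and 1.02, 0.76 and 1.38 in the KO-labelled ureters. KO 1 and KO 2 were below all WT arrays and KO 3 was above WT 3. The difference was -0.59 ± 0.23 (unadjusted p = 0.0386, adjusted p = 0.524, limma), and its other probe gave -0.56. Adamts2, the principal enzyme of this activity on type I procollagen, read 4.93, 4.69 and 4.77 in WT and 4.84, 4.52 and 4.86 in the KO-labelled ureters. All 6 arrays lay within 0.41 log2 units, and the difference was -0.06 ± 0.14 with a 95% interval from -0.39 to 0.28. That holds for its brightest probe, and the other measured probes gave -0.50 and -0.27.

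Adamts6, which acts on microfibril and cell-adhesion components, read -1.11, -0.75 and -0.98 in WT and -1.66, -1.47 and -0.97 in the KO-labelled ureters. KO 1 and KO 2 were below every WT array and KO 3 was level with WT 3, for a difference of -0.42 ± 0.20 (adjusted p = 0.594) that was -0.27 without KO 1 and -0.23 under normexp. Adamts19, whose substrates are poorly known, was well above background on 1 of 3 WT and 3 of 3 KO-labelled arrays. It read -3.19, -6.00 and -7.36 in WT and -4.22, -4.69 and -4.90 in the KO-labelled ureters, so WT 1 was its highest array and the other WT arrays its lowest. The difference of 0.91 ± 0.999 had an adjusted p of 0.814. It was 2.07 without WT 1, -0.011 without WT 3 and -0.013 under normexp. Adamts17 was well above background on 2 of 3 WT arrays and 3 of 3 KO-labelled ones.

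Of the 5 ADAMTS-like genes, 3 were higher and 2 lower in the KO-labelled group, with a median difference of 0.07 and no unadjusted p under 0.05. Adamtsl2, a fibrillin-binding regulator of TGF-β availability, read -1.73, -3.51 and -3.75 in WT and -1.53, -2.19 and -2.98 in the KO-labelled ureters. WT 1 and KO 1 were high and WT 2 and WT 3 low, and the difference was 0.76 ± 0.61 (adjusted p = 0.749). It was 1.39 without WT 1, against 0.50 without WT 2, 0.38 without WT 3, 0.41 without KO 1 and 0.19 under normexp. The 19 measured members not given by array, which are Adamts3, Adamts7, Adamts9, Adamts10, Adamts12, Adamts15 to Adamts18, Adamtsl1, Adamtsl3, Adamtsl4, Adamtsl5, Mmp11, Mmp15, Mmp16, Mmp17, Mmp23 and Mmp28, had differences between -0.56 and 0.40. Of these 12 were higher and 7 lower, and the lowest adjusted p was 0.702. Among the 20 members with more than 1 measured probe, the probes disagreed in sign for 5, Adamts10, Adamts12, Adamts17, Adamts18 and Adamtsl1.

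The members varied more between arrays than genes did in general. The median range of a member over the 6 arrays was 1.12 log2 units, against 0.57 over all genes. In 11 members, Adamts17, Adamts18, Adamts19, Adamtsl2, Mmp7, Mmp8, Mmp9, Mmp10, Mmp12, Mmp13 and Timp4, the range was over 2 log2 units, which is 4-fold. Of these, Adamts17, Adamts19, Mmp7 and Mmp13 were not well above background on every array, while the others were. The members were not matched to genes of like brightness, and the part of dim signal in these ranges was not tested. The 95% interval of the difference lay wholly within a 2-fold change in either direction for 22 members (48.9%), against 82.7% of all genes. For the other members a 2-fold change was within the interval, so its absence is not shown.

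WT 2 and WT 1 were the arrays most often at the extremes. WT 2 was the lowest or highest array for 27 members (60%), against 42.7% of all genes, and WT 1 for 23 (51.1%), against 54.6%. KO 1 was at an extreme for 16 members (35.6%), against 25% of genes, and KO 2 for 15 (33.3%), against 40%. WT 3 was at an extreme for 8 members (17.8%), against 16.2% of genes, and KO 3 for 1 (2.22%), against 21.4%. WT 1 was the lowest array for 8 members, Timp1, Mmp3, Mmp10, Mmp19, Adamts1, Adamts4, Adamts9 and Adamtsl4, and the highest for 15. The SD was larger in the WT group for 29 members (64.4%), close to the 60.3% of all genes. Without WT 1 the groups of 18 members did not overlap, 3 of which did not overlap with all arrays either. The 15 others were 8 lower in the KO-labelled group, among them Adamts4 at -0.64, and 7 higher. The 18 were 40% of the members, against 32.4% of all genes.

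**Figure D4:**
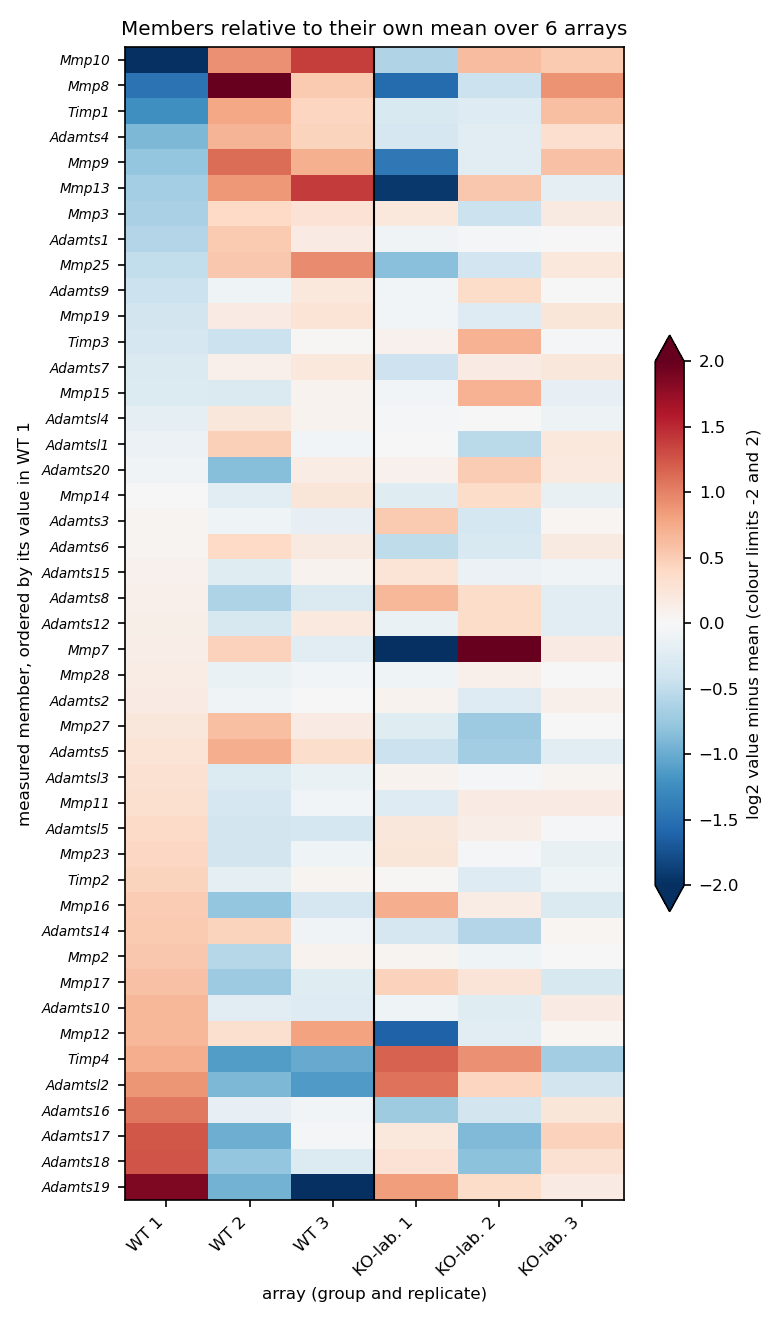
Each measured member (45, ordered by its value on WT 1) on each of the 6 arrays, as the log2 value minus the member's mean over the arrays; red is above and blue below that mean, and the colours end at -2 and 2. Mmp10, Mmp8, Timp1 and Adamts4 are at the top with WT 1 lowest or near lowest, Adamts19 is at the bottom with WT 1 highest, and KO 3 is pale in most lines.

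Other proteases and regulators of the same pathway gave no adjusted call either. Of 9 ADAM metalloproteases, which shed cell-surface proteins, 3 were higher and 6 lower, and Adam17, the TNF-α convertase, differed by -0.37 ± 0.13 (unadjusted p = 0.0273, adjusted p = 0.495, limma). Of the 6 measured genes of plasminogen activation, the cascade that activates several pro-MMPs, 4 were higher and 2 lower, with no unadjusted p under 0.05. Of 5 measured inhibitors, receptors and inducers outside the Timp family, 4 were higher and 1 lower, again with no unadjusted p under 0.05. The 4 include A2m, at 0.97 ± 0.47, which was well above background on 1 of 3 WT and 3 of 3 KO-labelled arrays. A2m was thus kept only through the group where it read higher, which favoured its direction in the count. Reck, a membrane-anchored MMP inhibitor, differed by 0.19 ± 0.29. Of 4 proprotein convertases, which activate membrane-type MMPs and ADAMTS enzymes, 1 was higher and 3 lower, and Furin differed by -0.07 ± 0.11. Of 4 measured astacin and procollagen C-proteinase genes, 1 was higher and 3 lower, and Pcolce2, an enhancer of procollagen C-proteinase, differed by -0.45 ± 0.16 (unadjusted p = 0.0265, adjusted p = 0.493, limma).

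Substrates of the ADAMTS enzymes gave no adjusted call. Of 11 measured substrates, 6 were higher and 5 lower, with a median difference of 0.05. Comp, cartilage oligomeric matrix protein, a substrate of several ADAMTS enzymes, read 2.97, 3.13 and 3.09 in WT and 2.05, 1.97 and 2.40 in the KO-labelled ureters. The groups did not overlap, and the difference was -0.92 ± 0.14 (unadjusted p = 5.4e-04, adjusted p = 0.398, limma). The large proteoglycan Vcan, a substrate of Adamts1, Adamts4 and Adamts5, differed by 0.12 ± 0.15, and the fibrillar collagen Col1a1 by -0.15 ± 0.15.

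Markers of the tissue's cells showed what the samples held. All 8 urothelium, 7 smooth muscle, 8 fibroblast and 5 endothelium markers were measured. Genes of these cell types were thus detected, which does not by itself identify the organ. All 8 urothelium markers were higher in the KO-labelled ureters, 4 of them at an unadjusted p under 0.05, with mean levels of -0.89 to 0.01 in WT and 0.02 to 0.86 in the KO-labelled group. All 7 smooth muscle markers were higher as well, none of them at that p, with levels of -0.79 to 0.12 and -0.21 to 0.64. Fibroblast markers were 5 higher and 3 lower, with levels of -0.23 to 0.21 and -0.03 to 0.07, and endothelium markers were 3 higher and 2 lower. Of 9 kidney tubule and podocyte markers 4 were measured, and their mean level was 1.46 on WT 2 and between -0.44 and -0.19 on the other arrays. WT 2 was also the array most often at an extreme for the members, and the part of kidney tissue in that was not tested. Without WT 2 and KO 3, 5 members had an unadjusted p under 0.05, against 9.66% of all genes, and the groups of 11 did not overlap, against 40.9% of all genes. The Adamts5 and Mmp12 differences were -0.87 and -1.64.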

How the data were processed

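RNA of 6 ureters was hybridised in Cy3 to 1-colour Agilent arrays, 1 per mouse. Per the file headers, the deposited intensity values came out of Agilent Feature Extraction 12.0.3.1 with background removed and no scaling between arrays, and probe positions are on mm9. All arrays were on 1 slide and 1 scan. Any scaling by the authors is not given in the sources at hand.

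Outlier spots were set to missing, spots of a probe averaged, and log2 processed signals centred on each array's 75th percentile. No member lacked a value. A probe had to exceed background clearly on all arrays of a group to be kept, and each gene took its brightest such probe. Names were checked through RefSeq accessions of GRCm38.p6, which matched 35405 probes. Genotype was tested over 22260 genes with limma 3.58.1 (lmFit, eBayes; R 4.3.3), tested on simulated data, at an adjusted p of 0.05. Alternatives changed background correction, normalisation, centring, filter, probe choice, replicate block, sex term and arrays used. The number of arrays limits the precision.

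The members and lists were chosen with earlier results of these data known. Array values are given for Timp1, Mmp9, Adamts1, the 6 brightest members, those at an unadjusted p under 0.05 and the 6 with the largest difference in each direction, and up to 3 genes are named per list. The 6 members Mmp3, Mmp7, Mmp10, Mmp14, Mmp19 and Adamts6, and the gene cluster, were added after their values were seen. So were Cxcr2, Mpo, Elane, Furin, Reck, Vcan and Col1a1 among the lists.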

Additional observations from a re-analysis of the deposited data

How the results depend on the processing

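No member passed the adjusted threshold under any alternative run, and the lowest adjusted p of a member was 0.157, without KO 3 or with labelled sex as a covariate, which removes the same array. Over all genes 1 passed without KO 2 and 1 with the replicate block (0 to 1 over the leave-one-out fits). Deviations of same-numbered arrays from their group means correlated at r = 0.53 for WT 1 and KO 1. For the arrays numbered 2 and 3 the values were -0.15 and -0.03. The labels state no pairing, and whether same-numbered arrays share more than a number was not tested. Members at an unadjusted p under 0.05 numbered 7 with the replicate block, 8 with the sex covariate and 2 to 10 when single arrays were left out, where the shares over all genes were 9.17%, 13.7% and 4.92% to 13.7%. Members whose groups do not overlap numbered 5 when a gene's probes were averaged, 11 without WT 2 and KO 3, and 3 to 18 when single arrays were left out, where the shares over all genes were 15.2%, 40.9% and 20% to 33.6%. Of the 45 members, 19 kept their sign in every alternative and 26 changed it in at least 1; the cause was not tested. With normexp, Adamts19 was at -0.013, Mmp10 at -0.013, Mmp2 at 0.0031 and Mmp7 at 0.072. Centring on the median gave Mmp14 at 0.011, Mmp2 at 0.0088 and Mmp3 at 0.0044. The sex covariate gave Mmp14 at 0.050 and Timp1 at -0.27. Without WT 2 and KO 3, Adamts1 was at 0.16 and Mmp3 at 0.073. With arrays left out singly, or WT 2 and KO 3 together, the ranges of those members described by array whose sign turned were -0.38 to 0.17 for Adamts1, -0.011 to 2.07 for Adamts19, -0.17 to 0.053 for Adamts2, -0.64 to 0.15 for Adamts4, -0.97 to 1.14 for Mmp10, -0.20 to 0.099 for Mmp14, -0.24 to 0.079 for Mmp19, -0.32 to 0.24 for Mmp2, -0.35 to 0.19 for Mmp3, -1.43 to 1.08 for Mmp7, -1.63 to 0.12 for Mmp8 and -0.58 to 0.41 for Timp1. Differences near 0 with wide intervals have no settled direction, and the number of arrays limits the precision.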

Other observations

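WT 1 was low for further genes outside the Mmp, Timp and Adamts families, read after the values of Timp1 and Adamts4 had been seen. Plaur, the urokinase receptor, read 2.03, 3.95 and 3.71 on WT 1 to WT 3 and 2.82, 3.27 and 4.07 on KO 1 to KO 3. It had WT 1 lowest and KO 1 next, with WT 2, WT 3 and KO 3 as the highest arrays, as did Timp1 and Adamts4. The difference between the groups was 0.16 ± 0.57 (adjusted p = 0.957, limma), and no relation across the 6 arrays was tested. S100a8, an alarmin of neutrophils, read 3.07, 5.68 and 4.49 in WT and 3.40, 4.47 and 5.70 in the KO-labelled ureters, again lowest on WT 1.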
